A study of Mus musculus with 6 samples.

Results

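The genes described here encode the subunits of the proteasome and the proteins named with them. They were chosen by a rule on names, with earlier results of these data known. The rule took every protein-coding gene of the count table whose symbol starts with Psma, Psmb, Psmc, Psmd or Psme followed by a digit, pseudogenes left out. The rule found 45 of the 55416 genes in the table, and 43 of them were among the 15623 genes that passed the filter on low counts. Psma8, the alpha subunit of the testis, had 2 counts in WT replicate 2, 1 in KO replicate 3 and 0 in the other libraries, and Psmb11, the beta subunit of the thymic cortex, had 1 count in WT replicate 2 alone, so neither was tested. Psmc3ip fits the name rule but encodes a protein of meiotic recombination, and it was kept as a member outside the classes.

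RNA was sequenced from the tibialis anterior (TA) muscle of 3 wild-type (WT) and 3 SELENOW knockout (KO) mice aged 24 months, to ask how gene expression differs in aged muscle without this selenoprotein. Both lines were kept on a C57BL/6N background, and the methods give aged animals as male. The knockout was made by Cas9 with guide RNAs that delete exon 4 of Selenow in the germline, so the gene is altered in every cell type and not in muscle fibers alone. Neither genotype received a drug or other treatment beyond aging. Counts were given per gene, so the loss of exon 4 was not measured. For the protein, the study reported by Western blot of TA muscle that SELENOW was lost in KO mice.

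The proteasome degrades proteins that carry chains of ubiquitin. Its core particle is a barrel of outer rings of alpha subunits around inner rings of beta subunits, and the proteolytic sites lie on Psmb5 (chymotrypsin-like), Psmb6 (caspase-like) and Psmb7 (trypsin-like). A regulatory particle, made of a base with ATPases and a lid, binds ubiquitinated proteins, removes the ubiquitin and threads the proteins into the core. Interferon induces Psmb8, Psmb9 and Psmb10, which replace Psmb5, Psmb6 and Psmb7 in the immunoproteasome and change the peptides made for antigen presentation. In muscle the ubiquitin-proteasome system is best known for breaking down contractile proteins during atrophy.

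The libraries held 25351976 to 29111213 counts, and mitochondrially encoded genes took 29.1% to 37.3% of them in WT and 35.4% to 40.3% in KO libraries. Levels are given as CPM, the share of a library's counts on a common scale after correction by TMM factors, and the smallest count taken to show a gene, 3, was worth 0.103 to 0.118 before that scaling. Muscle fiber markers were abundant throughout, with 10 of 10 tested and a summed CPM of 87940 to 110500 in WT and 95290 to 107700 in KO. Selenow had a CPM of 268, 245 and 219 in WT and 193, 212 and 210 in KO replicates 1 to 3. All KO libraries were below all WT libraries for Selenow, and edgeR's quasi-likelihood test with Benjamini-Hochberg adjustment gave a log2 fold change of -0.25 with a standard error of 0.14 and an adjusted p of 0.604. In bulk muscle, fewer cells of a type and less RNA per cell cannot be told apart.

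The subunits of the core and of the regulatory particle were expressed within a narrow range in WT muscle, and the inducible subunits were far below them. Per kilobase of the deposited gene length, which sums all annotated exons, the WT mean of the 14 tested constitutive core genes ran from 11.3 CPM per kb for Psma2 to 47.2 for Psma6, both alpha subunits. The 17 regulatory particle genes ran from 10.2 CPM per kb for Psmd3 to 44.3 for Psmd8, both of the lid. The lowest tested member was Psmb9 with 0.207 CPM per kb, and Psmb8 with 0.439 and Psmb10 with 1.87 were also below every core gene. Divided by the length of the principal transcript instead, a scale added after seeing the data, Psma2 at 14.2 was again the lowest core gene, but Psmb7 at 93.7 was the highest in place of Psma6 at 55.9. On that scale Psmb9 had 0.561, Psmb8 0.912 and Psmb10 2.43 CPM per kb. The order among core genes thus depended on the length used, while the gap between constitutive and inducible genes was present with both lengths.

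**Figure D1:**
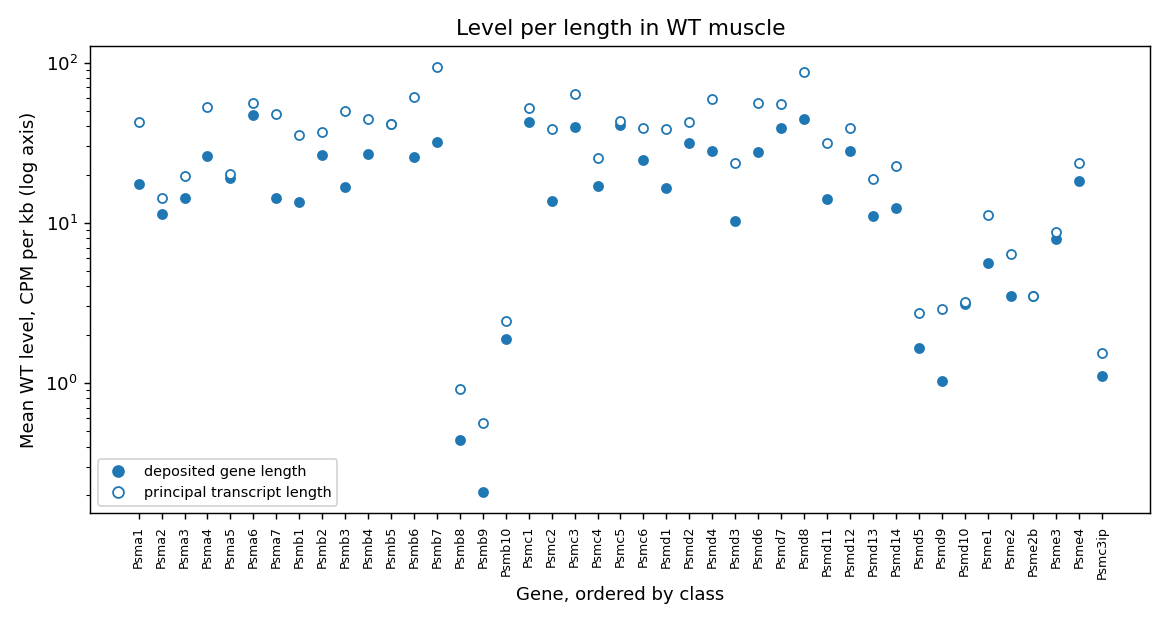
Mean level of the 43 tested genes in the 3 WT libraries, in CPM per kb on a log axis, with genes ordered by class along the horizontal axis. Filled points use the deposited gene length and open points the principal transcript length. Psmb8, Psmb9 and Psmb10 lie below every gene of the core ring and the regulatory particle on both scales.

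As compared with WT mice, 41 of the 43 tested genes had a negative log2 fold change in KO muscle, where 50.6% of all tested genes did. The median log2 fold change of the members was -0.18, that of all tested genes was -0.0042, and the values ran from -0.80 for Psmb5 to 0.03 for Psme4. After the filter on low counts, an adjusted p under 0.05 was given to 0 members by edgeR's quasi-likelihood test (0% of all genes) and to 0 members by DESeq2 (0.288% of all genes). With an unadjusted p under 0.05, edgeR's test counted 4 members lower in KO, namely Psmb5, Psmb4, Psma5 and Psma6, where 5.16% of all genes were lower by this rule, and 0 higher, where 4.73% were. The DEG thresholds of the study, which ask for a fold change above 1.5 or below 0.7 and for p below 0.05 without adjustment, were passed by Psmb5 alone among members lower in KO (3.14% of all genes) and by 0 members higher in KO (2.21% of all genes). In 11 of 43 members all KO libraries lay under all WT libraries, or 25.6% against 7.87% of all genes, and in 0 members did all KO libraries lie over all WT libraries (7.53% of all genes). Of these 11 genes, 7 belong to the constitutive core, 3 to the regulatory particle and 1 to the activators. With an offset for gene length the number was 8, against 8.08% of all genes, as Psma5, Psmc5, Psmd6 and Psme2b then overlapped and Psmd5 no longer did.

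**Figure D2:**
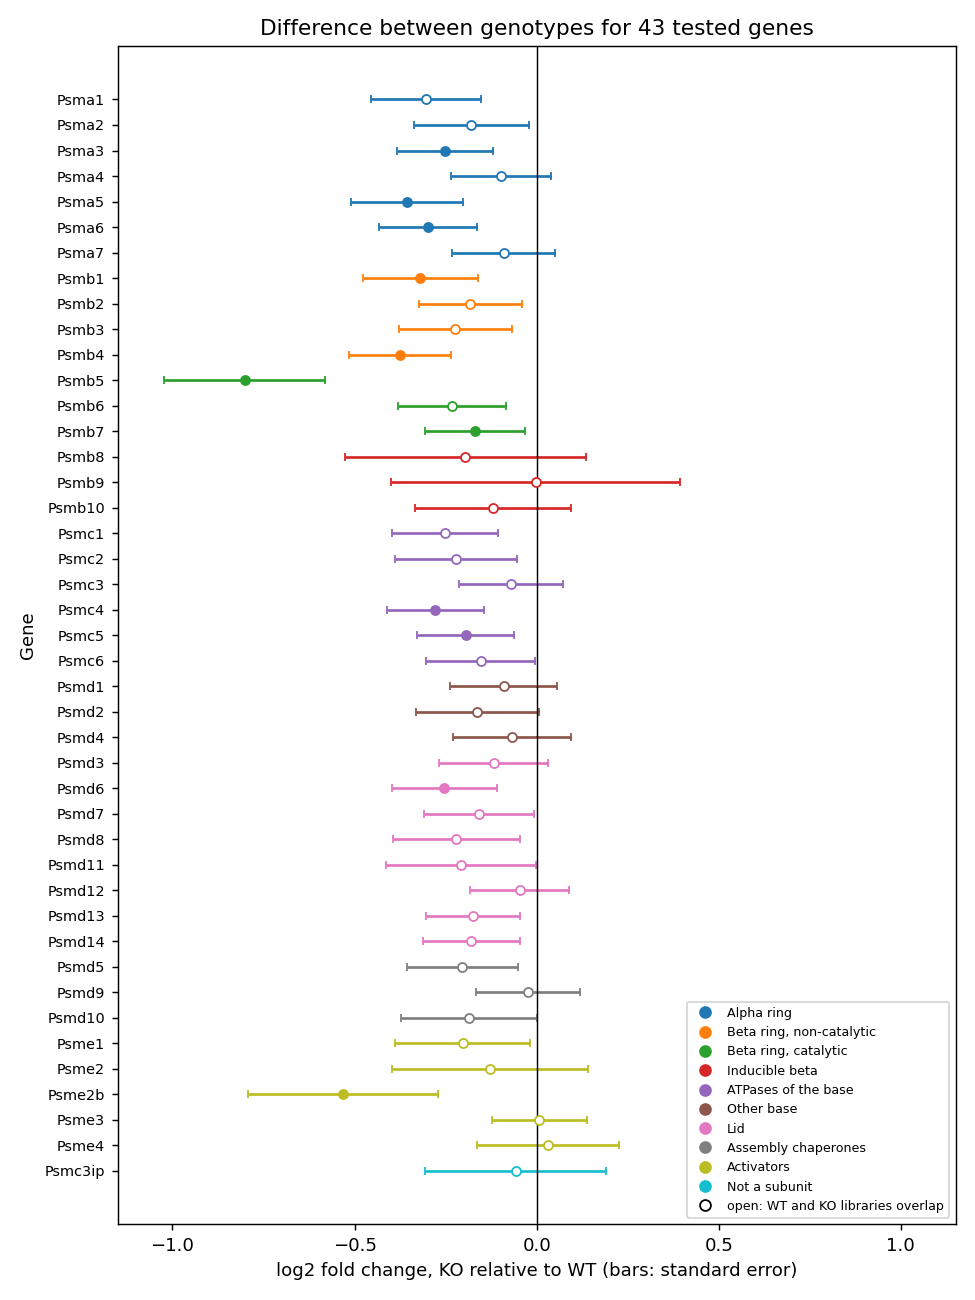
Log2 fold change of KO relative to WT for the 43 tested genes, with bars for the standard error derived from edgeR's F statistic and colors for the class. Filled points mark genes whose 3 WT and 3 KO libraries do not overlap. Psmb5 at -0.80 is farthest from 0, and the points of Psme3 and Psme4 alone lie above 0.

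Psmb5, the chymotrypsin-like subunit, was the member farthest from WT. Psmb5 (ENSMUSG00000022193) lies on chromosome 14 from 54614119 to 54618022 on the minus strand in GRCm38. Its counts were 916, 1344 and 972 in WT replicates 1 to 3 and 524, 353 and 752 in KO replicates 1 to 3, and its CPM was 37.2, 41.8 and 32.0 in WT and 21.1, 14.4 and 28.1 in KO. KO replicate 2 was lowest and KO replicate 3 came close to the lowest WT library, but the groups did not overlap. The KO mean was 57.3% of the WT mean, with 21.2 ± 6.87 against 37.0 ± 4.91 CPM (SD, n = 3 each). The log2 fold change was -0.80 (standard error 0.22, Benjamini-Hochberg adjusted p = 0.316 in edgeR's quasi-likelihood test). Without KO replicate 2 it was -0.58 (standard error 0.18, edgeR's adjusted p = 0.245), so the value depended on that library but the thresholds were still passed. The pseudogene Psmb5-ps had 0 counts in all 6 libraries.

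The other proteolytic subunits lay nearer to WT. Psmb6, the caspase-like subunit, had a CPM of 52.4, 50.5 and 42.4 in WT and 44.8, 33.9 and 44.8 in KO. The groups overlapped, since WT replicate 3 was below KO replicates 1 and 3, and the log2 fold change was -0.23 (standard error 0.15, edgeR's adjusted p = 0.641). Psmb7, the trypsin-like subunit, had a CPM of 110.5, 110.0 and 105 in WT and 105, 84.4 and 101 in KO. All KO libraries of Psmb7 were below the WT libraries, with KO replicate 1 just under WT replicate 3, and the log2 fold change was -0.17 (standard error 0.14, edgeR's adjusted p = 0.716). Without KO replicate 2 the log2 fold change was -0.11 for Psmb6 and -0.078 for Psmb7. The pseudogenes Psmb6-ps and Psmb6-ps2 had 0 counts in every library, and Psmb7-ps2 had 0 to 3.

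**Figure D3:**
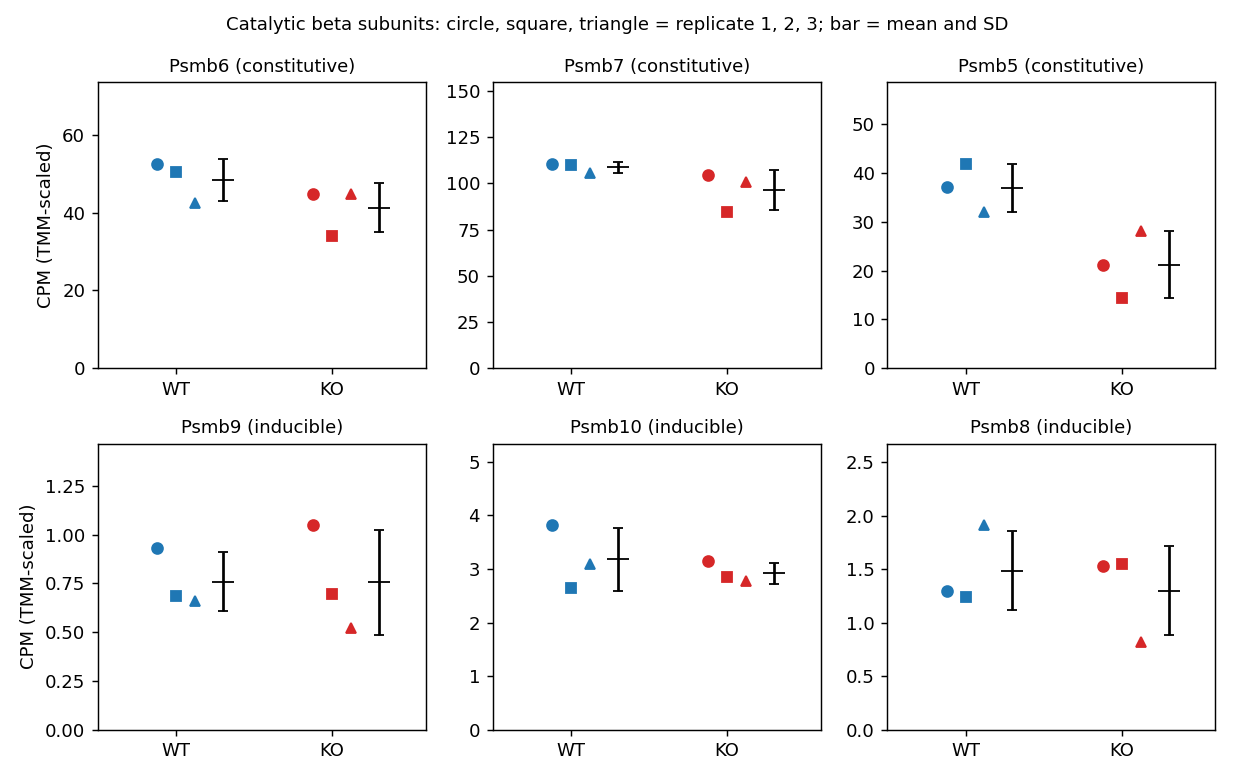
TMM-scaled CPM of the proteolytic subunits in the 3 WT and 3 KO libraries, each panel starting at 0 with its own scale, with constitutive genes above and the inducible gene that replaces each below. Points are libraries and bars the mean and SD. The WT and KO libraries are apart for Psmb5 and Psmb7 and overlap for Psmb6, Psmb8, Psmb9 and Psmb10.

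The promoters of 4 core genes are shown because the factors NRF1 and NRF2 are known to act on proteasome genes through a short antioxidant response element. RefSeq sequences of GRCm38.p6 were given for 38 members, as 41 promoters of 300 bases, with no entry for Psma8, Psmb1, Psmb2, Psmb7, Psmc3, Psmd3 and Psmd7. The 150 bases before the start are printed for Psmb5 and Psmb6, which hold a match to the core of that element (TGACNNNGC, in capitals), and for Psmb4 and Psma5, which hold none and had an unadjusted p under 0.05. Psma6, the other gene with such a p, is not shown, because its RefSeq and GENCODE starts lie more than 30 bases apart.
Psmb5, chr14:54617996-54618145, minus strand: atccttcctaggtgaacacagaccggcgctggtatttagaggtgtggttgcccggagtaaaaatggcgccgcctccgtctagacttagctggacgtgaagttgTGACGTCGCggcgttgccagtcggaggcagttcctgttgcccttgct
Psmb6, chr11:70525207-70525356, plus strand: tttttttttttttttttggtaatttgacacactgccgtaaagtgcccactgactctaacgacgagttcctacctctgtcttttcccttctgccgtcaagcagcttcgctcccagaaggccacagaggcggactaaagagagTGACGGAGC
Psmb4, chr3:94886959-94887108, minus strand: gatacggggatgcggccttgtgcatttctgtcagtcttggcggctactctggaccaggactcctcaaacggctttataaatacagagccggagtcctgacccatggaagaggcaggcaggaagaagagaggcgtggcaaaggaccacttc
Psma5, chr3:108256776-108256925, plus strand: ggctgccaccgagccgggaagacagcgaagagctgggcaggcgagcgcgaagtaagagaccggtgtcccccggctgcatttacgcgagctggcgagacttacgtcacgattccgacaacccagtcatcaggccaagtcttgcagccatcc
The match starts 47 bases before the RefSeq start, used for all printed stretches, in Psmb5 and 9 bases before it in Psmb6. The GENCODE start of the principal transcript lies 27 bases away from the RefSeq start in Psmb5 and 29 in Psmb6. On either strand, TGACNNNGC was found in 6 of the 41 promoters, or 14.6% against 12.4% of 32851 promoters of this length, and the others were Psmc6, Psmd9, Psmd12 and Psme4. CCAAT, the box of the factor NF-Y, was found in 36.6% against 37.4%. TTCNNNGAA, the gamma activated site, was found in 4.88% against 8.3%, and GAAANNGAA, part of the interferon stimulated response element, in 14.6% against 8.56%. These are matches of letters and not binding sites, and no binding was measured.

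Among the remaining constitutive core genes, Psmb4 and Psmb1 of the beta ring and Psma3, Psma5 and Psma6 of the alpha ring had all KO libraries below all WT libraries. Psmb4 had a CPM of 52.9, 55.3 and 50.2 in WT and 42.2, 34.1 and 45.7 in KO. The WT libraries lay close together and KO replicate 2 was lowest, with a log2 fold change of -0.38 (standard error 0.14, edgeR's adjusted p = 0.421). Psma5 had a CPM of 25.8, 24.5 and 24.7 in WT and 23.4, 15.2 and 20.0 in KO, and Psma6 58.7, 61.0 and 55.2 in WT and 48.9, 41.0 and 52.2 in KO. In both genes KO replicate 2 was lowest, and the log2 fold changes were -0.36 (standard error 0.15) and -0.30 (standard error 0.14), with adjusted p = 0.486 and 0.498 in edgeR's test. Psmb1 had a CPM of 64.0, 63.3 and 58.3 in WT and 56.5, 38.1 and 54.2 in KO, and Psma3 50.8, 61.2 and 54.5 in WT and 47.9, 42.97 and 49.2 in KO. Their log2 fold changes were -0.32 (standard error 0.16) and -0.25 (standard error 0.13), again with KO replicate 2 lowest, and neither had an unadjusted p under 0.05 in edgeR's test. Without KO replicate 2 the log2 fold change was -0.159 for Psmb1 and -0.201 for Psma5. The other core genes, Psma1, Psma2, Psma4, Psma7, Psmb2 and Psmb3, had overlapping libraries and log2 fold changes from -0.30 for Psma1 to -0.09 for Psma7. Over the 14 core genes the median was -0.24, with -0.25 in the alpha ring and -0.23 in the beta ring.

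The regulatory particle held 17 tested genes, and 0 passed the DEG thresholds or an unadjusted p under 0.05 in edgeR's test. By that p, 5.16% of all genes were lower in KO and 4.73% higher. All 17 log2 fold changes of the particle were negative, where 50.6% of those of all genes were. They ran from -0.28 for Psmc4 to -0.05 for Psmd12, with a median of -0.18. The medians were -0.21 over 6 ATPases of the base, -0.09 over its other genes Psmd1, Psmd2 and Psmd4, and -0.18 over 8 genes of the lid. The groups did not overlap, with KO lower, in 3 genes, or 17.6% against 7.87% of all genes. With the length offset 2 of these, Psmc5 and Psmd6, overlapped. Psmc4, an ATPase, had a CPM of 35.7, 41.4 and 32.8 in WT and 32.3, 27.8 and 30.5 in KO, with a log2 fold change of -0.28 (standard error 0.13, edgeR's adjusted p = 0.526). Psmc5, another ATPase, had a CPM of 54.0, 65.2 and 52.2 in WT and 49.9, 48.2 and 51.7 in KO, with a log2 fold change of -0.19 (standard error 0.13). KO replicate 1 of Psmc4 and KO replicate 3 of Psmc5 lay just under the lowest WT library. Psmd6, of the lid, had a CPM of 77.5, 81.2 and 75.1 in WT and 74.0, 54.6 and 67.5 in KO, with a log2 fold change of -0.25 (standard error 0.14). Without KO replicate 2 that of Psmd6 was -0.138, and without WT replicate 2 those of Psmc4 and Psmc5 were -0.177 and -0.085. Psmd14, the deubiquitinase of the lid, had overlapping libraries and a log2 fold change of -0.18, and so did Psmd4, a ubiquitin receptor, at -0.07. Psmd5, Psmd9 and Psmd10, chaperones that assemble the base, had log2 fold changes of -0.20, -0.02 and -0.18 and overlapping libraries.

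The library KO replicate 2 carried much of the difference, as seen after the values were examined. It was the lowest of the 6 libraries in 34 of 43 members, where it was the lowest for 19.7% of all tested genes. It was the lowest in all 14 core and all 17 regulatory particle genes, in 2 of 3 chaperones, in 1 of 5 activators and in 0 of 3 inducible genes. Its level was a median of 76.7% of the mean of KO replicates 1 and 3 over the core genes and 81.3% over the regulatory particle genes, against 100.1% over all tested genes. Relative to the WT mean on the log2(CPM + 0.5) scale, the median core gene stood at 0.02, 0.07 and -0.08 in WT replicates 1 to 3 and at -0.09, -0.52 and -0.13 in KO replicates 1 to 3. The median regulatory particle gene stood at -0.11, 0.17 and -0.02 in WT and at -0.07, -0.37 and -0.04 in KO. For the core, KO replicates 1 and 3 were thus just below WT replicate 3, and for the regulatory particle they lay among the WT libraries. With the length offset the median core gene stood at -0.0424, 0.0732 and -0.0335 in WT replicates 1 to 3. In KO replicates 1 to 3 it stood at -0.0410, -0.4623 and -0.0927. On that scale KO replicate 1 lay among the WT libraries for the core, and KO replicate 3 lay below them. Without KO replicate 2 the median log2 fold change was -0.078, with -0.134 for the core and -0.071 for the regulatory particle. In that fit, in counts added after seeing the data, 36 of 43 members had a negative log2 fold change, against 49.9% of all genes. Psmb5 was the 1 member lower with an unadjusted p under 0.05 in edgeR's test, against 4.63% of all genes. KO replicates 1 and 3 both lay under all WT libraries in 11 of 43 members, or 25.6% against 11.6% of all genes, and 7 of these were core genes. With the offset for gene length, KO replicate 2 was the lowest library in 31 of 43 members, against 20.5% of all genes, including all 14 core and 14 of 17 regulatory particle genes. Its mitochondrial share of 38.2% lay between those of the other KO libraries, and the part of library composition in its low values was not tested.

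**Figure D4:**
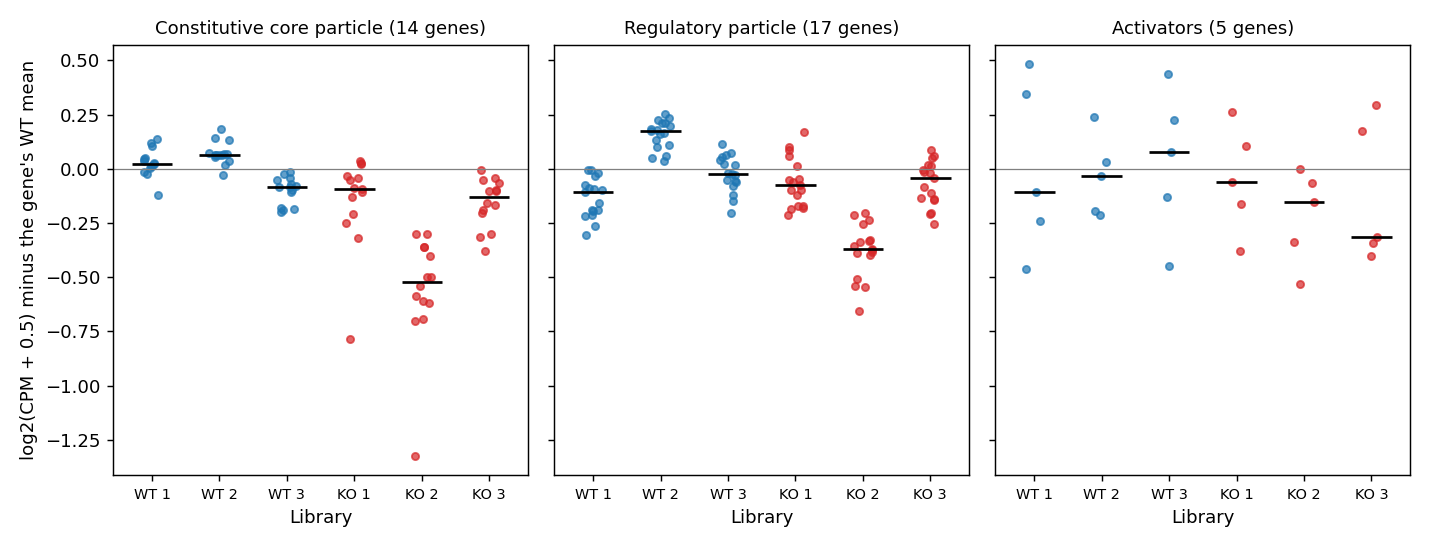
Level of each gene in each library relative to its WT mean, as a difference of log2(CPM + 0.5), for 14 core, 17 regulatory particle and 5 activator genes. Points are genes and horizontal lines are medians. KO replicate 2 has the lowest median in the core (-0.52) and regulatory particle (-0.37) panels.

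The WT libraries also differed among themselves by class. WT replicate 1 was the lowest WT library in 12 of 17 regulatory particle genes and in 1 of 14 core genes, where it was the lowest WT library for 35.5% of all genes. WT replicate 2 was the highest WT library in 15 of 17 regulatory particle genes, against 32% of all genes, and WT replicate 3 was the lowest in 12 of 14 core genes, against 33.1% of all genes. With the length offset WT replicate 1 was the lowest WT library in 16 of 17 regulatory particle and 6 of 14 core genes, against 37% of all genes, so the contrast between the classes was smaller on that scale.

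The inducible subunits showed overlapping libraries and wide errors. Psmb8 had 22 to 58 counts and a CPM of 1.30, 1.25 and 1.91 in WT and 1.53, 1.55 and 0.823 in KO. Psmb9 had 14 to 26 counts and a CPM of 0.933, 0.685 and 0.659 in WT and 1.05, 0.693 and 0.524 in KO. Psmb10 had 70 to 94 counts and a CPM of 3.81, 2.65 and 3.10 in WT and 3.14, 2.85 and 2.77 in KO. KO replicate 3 was the lowest library for Psmb8 and Psmb9 and WT replicate 2 for Psmb10. The log2 fold changes were -0.20 (standard error 0.33), -0.003 (standard error 0.40) and -0.12 (standard error 0.21), with adjusted p = 0.876, 0.998 and 0.884 in edgeR's test, and each changed sign when single libraries were left out. At these standard errors a difference of the size of the core median, -0.24, could not be detected for Psmb8, Psmb9 or Psmb10.

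Each inducible gene was also set against the gene it replaces, as a ratio of levels per kb that does not depend on the scaling of the library. Psmb8 was 0.929%, 0.791% and 1.59% of Psmb5 in WT and 1.93%, 2.86% and 0.778% in KO. KO replicates 1 and 2 were above and KO replicate 3 below the WT libraries, and the WT log2 ratio was -6.57 ± 0.53 and the KO log2 ratio -5.94 ± 0.96 (SD, n = 3 each), a difference of 0.63 (exact permutation test, two-sided, p = 0.4). Psmb9 was 0.910%, 0.694% and 0.796% of Psmb6 in WT and 1.20%, 1.05% and 0.598% in KO, a log2 difference of 0.19 (exact permutation test, p = 0.7). Psmb10 was 6.92%, 4.83% and 5.89% of Psmb7 in WT and 6.03%, 6.79% and 5.50% in KO, a log2 difference of 0.06 (exact permutation test, p = 0.8). In both of these ratios the groups overlapped. The percentages depend on the gene length used, though the log2 differences do not. By the principal transcript, Psmb8 was 1.64% to 3.30% of Psmb5, Psmb9 0.801% to 1.05% of Psmb6 and Psmb10 2.13% to 3.05% of Psmb7 in WT. The p adjusted over the 3 ratios was 0.8 for each, and 3 against 3 libraries cannot give an exact permutation p under 0.1.

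Genes of antigen presentation, which interferon induces together with these subunits, were not shifted to one side. Of 10 genes, 7 were lower and 3 higher in KO, where 50.6% of all tested genes were lower. The DEG thresholds were passed by 0 of them, against 3.14% of all genes as lower and 2.21% as higher. The median log2 fold change of the 10 genes was -0.027. Their summed CPM was 145, 142 and 150 in WT and 181, 123 and 119 in KO, so KO replicate 1 was above and the other KO libraries below the WT range. The inducible subunits are most abundant in leukocytes. Of 20 leukocyte markers 15 were tested, and 13 of those were lower in KO, where 50.6% of all tested genes were. The median log2 fold change of the tested markers was -1.109. Csf1r (-0.691) and S100a9 (-1.642) passed the DEG thresholds as lower in KO, as did 3.14% of all genes. Cd3e (1.161) passed them as higher, as did 2.21% of all genes. For Csf1r, S100a9 and Cd3e the adjusted p in edgeR's test was 0.470, 0.416 and 0.316. For Csf1r and S100a9 every KO value was under the lowest WT value, as for 7.87% of all genes. For Cd3e every KO value was over the highest, as for 7.53% of all genes. The summed CPM of the 20 was 44.5, 28.3 and 102 in WT and 39.6, 27.3 and 24.5 in KO, with 0 markers at 0 in every library. WT replicate 3, the highest by this sum, was also highest for Psmb8 and Psme2b but not for Psmb9, Psmb10, Psme1 and Psme2. For Psme2 it was the lowest of the 6 libraries. The part of leukocyte RNA in these values was not tested. All 8 endothelial markers had a positive log2 fold change, with a median of 0.31, where 50.6% of all tested genes had a negative one. The DEG thresholds were passed by 0 of them, against 2.21% of all genes as higher. Against 7.53% of all genes, 2 of the 8 endothelial markers had KO libraries all above WT. Their summed CPM was 80.9 to 126 in WT and 121 to 137 in KO, and the part of endothelial RNA in the members' values was not tested. The summed CPM of 6 adipocyte markers was 62.2 to 122 in WT and 87.2 to 112 in KO, and that of 8 keratinocyte markers 1.54 to 2.24 and 1.14 to 1.73, with Krt1, Krt5 and Krt14 at 0 throughout.

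The activators, caps that can replace the regulatory particle, included the 2 members with a positive log2 fold change. Psme3, the nuclear activator, and Psme4, the largest cap, were at 0.007 (standard error 0.13) and 0.03 (standard error 0.20). Psme1 and Psme2, which form the interferon-induced cap, were at -0.20 (standard error 0.19) and -0.13 (standard error 0.27) with overlapping libraries. Psme2b had a CPM of 2.31, 2.40 and 3.99 in WT and 2.05, 1.79 and 2.17 in KO, with WT replicate 3 well above the rest. Its KO libraries were all below the WT libraries, with a log2 fold change of -0.53 (standard error 0.26, edgeR's adjusted p = 0.54). Psme2b shares 76.5% of its 807 stretches of 31 bases with Psme2, so its counts are uncertain. Without WT replicate 3 its log2 fold change was -0.232. Psmc3ip, the member that is no subunit, was at -0.06 (standard error 0.25).

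Of 46 further genes of the pathway 45 were found and tested, with a median log2 fold change of -0.088. In KO 31 were lower and 14 higher, where 50.6% of all tested genes were lower. The DEG thresholds were passed by 1 gene that was lower (3.14% of all genes) and by 0 that were higher (2.21% of all genes). It was Rps27a, which encodes ubiquitin fused to a ribosomal protein, with a CPM of 27.5, 20.3 and 20.95 in WT and 14.0, 14.1 and 12.5 in KO. All KO libraries were below all WT libraries, with a log2 fold change of -0.76 (standard error 0.15, edgeR's adjusted p = 0.238). Ubb, a polyubiquitin gene, had a CPM of 811, 836 and 688 in WT and 587, 618 and 662 in KO, without overlap, and a log2 fold change of -0.32 (standard error 0.15, edgeR's adjusted p = 0.515).

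The genes that build or drive the proteasome differed by list, where 50.6% of all tested genes had a negative log2 fold change. It was negative in 5 of 5 tested assembly genes of the core, with a median of -0.245. Among 7 other components of the particle it was negative in 5 and positive in 2, with a median of -0.13. Among 6 genes of the transcription route it was negative in 1 and positive in 5, with a median of 0.073. Nfe2l1, which encodes the factor NRF1 that raises proteasome genes when the proteasome is inhibited, had a CPM of 266, 370 and 358 in WT and 319, 339 and 395 in KO, with overlapping groups and a log2 fold change of 0.08 (standard error 0.17, edgeR's adjusted p = 0.899). Ddi2, the protease that activates NRF1, had a CPM of 45.8, 82.5 and 57.8 in WT and 86.7, 90.1 and 85.3 in KO. Its KO libraries were all above the WT libraries, with a log2 fold change of 0.49 (standard error 0.19, edgeR's adjusted p = 0.441). Libraries were also apart and lower in KO for Pomp, the maturation protein of the core, at -0.24, and Sem1, the smallest lid component, at -0.35, and apart and higher for Psmf1, a regulator that binds the core, at 0.29. Together with Rps27a and Ubb, libraries were apart and lower in 4 of the 45 pathway genes, or 8.89%, and apart and higher in 2, shares near those of all genes given above (7.87% and 7.53%). Ddi2, Pomp, Sem1 and Psmf1 were chosen with their values in view.

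The muscle ubiquitin ligases of atrophy varied widely among the WT libraries. Fbxo32 (atrogin-1) had a CPM of 228, 693 and 364 in WT and 281, 284 and 391 in KO, and Trim63 (MuRF1) 116, 424 and 175 in WT and 166, 132 and 182 in KO. WT replicate 2 was far above the other 5 libraries in both genes. The groups overlapped, and the log2 fold changes were -0.43 (standard error 0.41) and -0.58 (standard error 0.51), with adjusted p = 0.768 and 0.755 in edgeR's test. WT replicate 2 also had the highest WT level in 15 of 17 regulatory particle genes, as given above.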

How the data were processed

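TA muscle RNA of 3 WT and 3 KO mice was sequenced as paired reads. The authors aligned reads with Hisat2, counted them per gene with featureCounts and deposited raw counts with a gene length. The methods name GRCm38 and the submitters' processing notes GRCm39, so positions in the table were not used and member positions come from GENCODE M21. Symbols were matched for 52083 of 55416 genes. Handling of strand and of reads that map to several places is not given in the sources used here, so near-identical copies are uncertain. The count column of WT without a number was taken as replicate 1, since the others are numbered. Nothing in the labels says how the mice were paired, and p-values measure the spread between these libraries.

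Members and lists were chosen with earlier results of these data known. Genes were kept with filterByExpr, scaled by TMM and fitted with edgeR's robust quasi-likelihood test (edgeR 4.0.16, R 4.3.3), with Benjamini-Hochberg adjustment over 15623 genes. That test returns no standard error, so it was derived as the absolute log2 fold change divided by the square root of the F statistic. The edgeR and DESeq2 fits were tried on simulated counts with known fold changes, and the derived standard error was not checked there. Values for each library are given for members past the DEG thresholds or with libraries apart, the proteolytic and inducible subunits, and named pathway genes, of which 1 is not reported here. Alternatives were DESeq2 1.42.0 and its size factors, no filter, 10 counts in every library, robust estimation off, the replicate number as a block, no mitochondrial genes, a gene length offset, other thresholds, a pseudocount of 1 in the ratios and leaving out each library. The length of the principal transcript, the length offset for the lowest library and for medians by library, and the counts of members without KO replicate 2 were added after seeing the data.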

Additional observations from a re-analysis of the deposited data

How the results depend on the processing

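Psmb5 passed the DEG thresholds in all 15 fits, and its log2 fold change ran from -1.06 to -0.58 when single libraries were left out. With no filter on low counts, edgeR's test gave Psmb5 an adjusted p of 0.000119, where 363 of 31780 genes had one under 0.05. In no other fit did a member have an adjusted p under 0.05. The number of members lower in KO by the DEG thresholds was 1, against 491 of 15623 genes. With no filter on low counts it was 2, where 1780 of 31780 genes passed in either direction. With an unadjusted p alone it was 4, against 5.16% of all genes. With an absolute log2 fold change over 1 it was 0, and the share of all genes was not counted for that setting. Over the fits that left out a library the number ran from 1 to 2, Psme2b being the second without WT replicate 1 or 2. In these fits 814 to 1072 genes passed in either direction, and 0 members were higher in every one. The median log2 fold change ran from -0.261 to -0.078 over all members when single libraries were left out, with the value nearest to 0 without KO replicate 2, from -0.305 to -0.134 in the core, from -0.229 to -0.071 in the regulatory particle, from -0.264 to -0.059 in the chaperones, from -0.343 to -0.044 in the activators and from -0.307 to 0.053 in the inducible subunits. The last changed sign without WT replicate 1 (0.026) and without KO replicate 3 (0.053). Psmb8 ran from -0.339 to 0.053, Psmb10 from -0.236 to 0.026 and Psmb9 from -0.307 to 0.206, and Psmb9 was 0.003 with the length offset. Psme2b had an unadjusted p under 0.05 in edgeR's test with no filter (-0.541) and without WT replicate 1 (-0.665) or WT replicate 2 (-0.651), and its log2 fold change was -0.232 without WT replicate 3. The log2 difference of Psmb9 to Psmb6 ran from -0.008 to 0.492, that of Psmb10 to Psmb7 from -0.07 to 0.189, and that of Psmb8 to Psmb5 from 0.218 to 1.158. No pairing by replicate number was visible, as deviations of same-numbered libraries from their group means correlated at 0.0909, 0.042 and -0.0978. Those of differently numbered libraries correlated at -0.1534 to 0.1231. With so few libraries, such correlations cannot show that the mice were unpaired. With the replicate block 1 member passed the DEG thresholds, where 890 of 15623 genes did. The median over members was then -0.188, and Psma6 no longer had an unadjusted p under 0.05 in edgeR's test. With the length offset Psma5 and Psma6 no longer had one and Psmb1 did. Depth limits Psmb8 and Psmb9, at 14 to 58 counts a library. The causes of these changes were not tested.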
